A study of Mus musculus with 4 samples.

Results

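The Ly6 genes Ly6a, Ly6c1, Ly6e, Ly6g and Ly6h, 5 of the 31053 genes counted, were followed in neurons of the mouse dorsal root ganglion (DRG), the ganglion that holds the cell bodies of sensory neurons. They were looked up by symbol, and all 5 were found in the tables. They had been chosen by their values in these libraries, namely their levels in sham against injured animals and in neurons positive and negative for Sprr1a, a gene of injured neurons. Levels and fold changes of the 5 genes in those contrasts are therefore given as descriptions, with no test. Tests are given for the sexes, for the other genes of the family, and for what set Ly6a-positive neurons apart.

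Ly6 proteins are small proteins of the Ly6/uPAR superfamily, held at the outer face of the cell by a lipid anchor and built on the disulfide-bonded fold that they share with snake alpha-neurotoxins. Ly6a (stem cell antigen 1, Sca-1), Ly6c1 (Ly-6C) and Ly6g (the neutrophil part of the Gr-1 antigen) are best known as surface markers of blood cells, and Ly6a and Ly6c1 also of vessels. Ly6e is an interferon-inducible member with roles in virus infection, and Ly6h is a neuronal member that, like Lynx1, acts on nicotinic acetylcholine receptors.

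The data are 4 single-cell RNA-seq libraries of GFP-positive cells sorted from lumbar L4-5 DRGs, which were named Male-Sham and Female-Sham, or Male-CCI and Female-CCI. All mice were 7 to 8 weeks old, of the PirtEGFPf strain on the C57BL/6 background, in which a membrane-bound EGFP stands in for the coding sequence of Pirt, a gene of most DRG neurons, and which were used as heterozygotes, so that sham and CCI animals alike were reporter mice. Chronic constriction injury (CCI) is a loose ligature of the sciatic nerve, here on both sides, and DRGs were taken on day 7 after CCI or sham surgery. Each library was a pool of 5 mice and 20 DRGs, so that 2 sham libraries stood against 2 CCI libraries. The p-values between libraries measure the spread between pooled libraries, not between mice. Comparisons of cells within CCI rest on 2 pools, each split in 2 sums, with the library as a term of the model. So few sums say little on how far a difference varied between those pools, and the test borrows the spread of all genes. Small p-values of these comparisons are therefore no measure of the spread between pools or between mice. Males and females of a litter were given the same operation, and the effects of litter and operation cannot be told apart.

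Of 23691 barcodes, 15715 cells were kept and 15134 were neurons. A library held 2817 to 5398 neurons with a median of 32490 to 56457 UMIs (counted transcripts) per neuron and 159941070 to 189489772 UMIs in all. Sprr1a+ neurons, defined by a log-normalized Sprr1a value over 1, made up 1.28% and 2.67% of the neurons in Male-Sham and Female-Sham, and 52.1% and 49.2% in Male-CCI and Female-CCI. The same 1085 barcodes occurred in more than 1 library. The 901 neurons that carried them were deeper than the others in each library (medians of 72902.5 to 90148 against 32005.5 to 53253 UMIs), and their effect is given where a result rests on them. Levels below are UMIs of a gene per 1000000 UMIs of all genes (CPM), summed over the cells of a group in a library. The libraries count 3′ ends, so levels were not divided by gene length. In sums over all neurons, the make-up of a library and the level per neuron cannot be told apart, which is why the levels by injury state and by class follow.

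The 5 genes lie together on mouse chromosome 15, between 74955051 (the start of Ly6e) and 75567255 (the end of Ly6h) in GRCm38, a span of 612 kb. It holds 10 protein-coding genes, and 9 of them belong to the Ly6/uPAR family. The other members in the span, Ly6i, Ly6c2, Ly6f and Ly6l, had at most 0.0307 CPM in any library, so the high levels below were not a property of every gene of the span. No other annotated gene overlapped a member. The 3′ ends of the transcripts were not equally distinct. Of the 31-base words in the last 400 bases, 29.1% in Ly6a and 44.3% in Ly6c1 also occurred in another gene, mostly Ly6c1 and Ly6c2 respectively, against 7.99% in Ly6g, 0.822% in Ly6e and none in Ly6h. Whether reads of Ly6a and Ly6c1 were lost or misplaced through these shared words was not measured.

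The upstream sequences of Ly6c1 and Ly6g are shown because both genes, which lie on opposite strands, went from near 0 to measurable in CCI. RefSeq promoter entries (GRCm38.p6) were found for these 2 members, 2 for each gene, and the entry nearest the annotated start is shown. The windows are chr15:75048838-75049087 on the minus strand for Ly6c1 and chr15:75155011-75155260 on the plus strand for Ly6g, each of 250 bases and written 5′ to 3′, with capitals for every run of at least 15 bases that the windows share.
Ly6c1: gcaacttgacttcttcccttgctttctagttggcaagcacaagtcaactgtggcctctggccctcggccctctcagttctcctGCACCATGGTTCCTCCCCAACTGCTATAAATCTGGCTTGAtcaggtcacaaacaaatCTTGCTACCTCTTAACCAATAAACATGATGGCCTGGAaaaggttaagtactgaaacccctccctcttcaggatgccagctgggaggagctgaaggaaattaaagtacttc
Ly6g: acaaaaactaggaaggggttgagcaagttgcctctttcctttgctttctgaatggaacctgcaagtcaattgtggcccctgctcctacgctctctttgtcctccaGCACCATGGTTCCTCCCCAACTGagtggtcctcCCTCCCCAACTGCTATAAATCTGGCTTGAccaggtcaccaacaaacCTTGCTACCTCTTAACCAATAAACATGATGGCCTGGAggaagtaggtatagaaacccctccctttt
The shared runs covered 77 bases (30.8%) of the Ly6c1 window and 89 bases (35.6%) of the Ly6g window. The capitals form 2 runs in the Ly6c1 window and 3 in that of Ly6g. Of 32851 promoter entries, 5 (0.0152%) held any of the shared 15-base words, and they belonged to Ly6c1, Ly6g, Ly6f and H2bc14. An NF-kB motif (GGGA, any 4 bases, CC) was found in both windows, as in 20.7% of all promoters, and the SOX motif ACAAAG in that of Ly6g, as in 18.7%. The other Ly6c1 entry held the SOX motif as well. The interferon-response motif (GAAA, any 2 bases, GAAA; 3.44% of all promoters), the STAT motif TTCNNNGAA (8.30%), the AP-1 motif TGANTCA (7.81%), the CRE motif TGACGTCA (1.79%), the ATF motif TGATGCAA (0.895%) and the E-box CACGTG (7.15%) were searched on both strands and not found in either window. A match is a description of the letters only.

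Over all neurons, 4 of the 5 genes were higher and Ly6h was lower in both CCI libraries than in both sham libraries. Ly6g, the neutrophil antigen, had 0.0555 and 0.137 CPM in the male and female sham libraries and 10.9 and 15.4 CPM in the male and female CCI libraries, from 9, 26, 1772 and 2462 UMIs. It was close to absent in sham neurons and readily counted after injury. Ly6c1 had 0.505, 0.480, 7.00 and 8.44 CPM in the same order, and Ly6a 4.76, 2.12, 23.5 and 22.7 CPM. Ly6e, the most abundant of the 4 rising genes in sham neurons, had 7.73, 7.79, 27.4 and 24.9 CPM. Ly6h, the most abundant member in sham neurons, fell from 68.4 and 67.2 CPM to 33.6 and 35.1 CPM. The groups did not overlap for any of the 5 genes. The fitted log2 fold changes were 7.09 (SE 0.36) for Ly6g, 4.02 (SE 0.13) for Ly6c1, 2.81 (SE 0.46) for Ly6a, 1.81 (SE 0.07) for Ly6e and -0.93 (SE 0.04) for Ly6h. Of all genes tested in this contrast, 15.2% were called higher and 12.7% lower (edgeR, adjusted p under 0.05 and a log2 fold change over 0.5 in size). The contrast was among those that chose the genes, so nothing is read from their count against these shares.

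**Figure D1:**
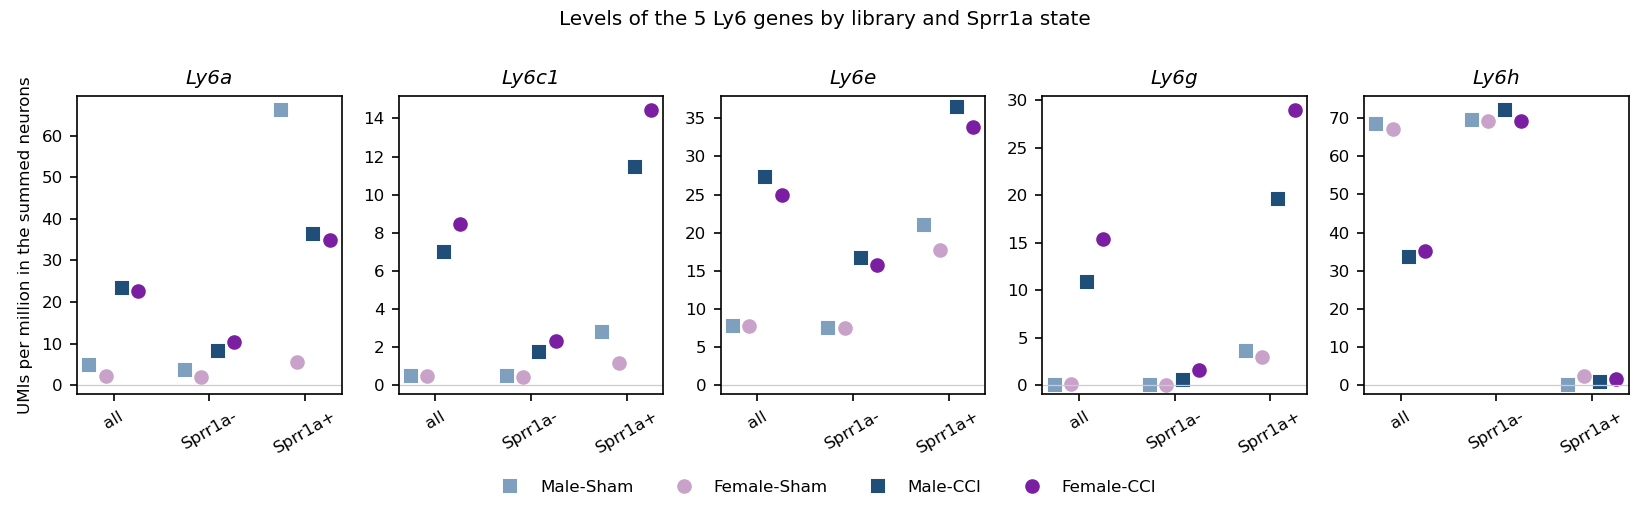
Level of each Ly6 gene (CPM, linear axis) in all neurons, Sprr1a- neurons and Sprr1a+ neurons, with a point for each of the 4 libraries. Ly6g rose from at most 0.137 CPM in sham to at least 10.9 CPM in CCI over all neurons, and Ly6h had 69.2 to 72.1 CPM in Sprr1a- neurons of the 4 libraries and at most 2.49 CPM in Sprr1a+ neurons.

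By injury state, Ly6h was found almost wholly in Sprr1a- neurons. Within the CCI libraries, Ly6h had 0.863 and 1.6 CPM in the Sprr1a+ neurons of Male-CCI and Female-CCI and 72.1 and 69.2 CPM in their Sprr1a- neurons. The Sprr1a- neurons of sham had 69.5 and 69.3 CPM, a difference from those of CCI of 0.00 (SE 0.04) on the log2 scale, and the groups overlapped. Ly6h was thus lower in CCI over all neurons while its level in Sprr1a- neurons stayed within the spread of the libraries. In neurons with no Sprr1a UMI at all, Ly6h had 67.0 and 69.0 CPM in sham and 62.1 and 54.4 CPM in CCI, which did not overlap.

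Ly6g had the largest share of its UMIs in Sprr1a+ neurons. Sprr1a+ neurons of Male-CCI and Female-CCI had 19.6 and 29.0 CPM, Sprr1a- neurons of the same libraries 0.589 and 1.59 CPM, and Sprr1a- neurons of sham 0 and 0.0436 CPM. In CCI, 97.5% and 94.9% of all neuronal Ly6g UMIs were in Sprr1a+ neurons, which held 54.1% and 50.4% of all UMIs. For Ly6c1 these shares were 88.5% and 86.4%, for Ly6a 84.1% and 77.5%, for Ly6e 72.1% and 68.6%, and for Ly6h 1.39% and 2.30%. The few Sprr1a+ neurons of sham, 42 and 144 cells, had 3.57 and 2.99 CPM of Ly6g, below both CCI libraries and above every Sprr1a- group.

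Ly6c1 had 11.4 and 14.5 CPM in Sprr1a+ neurons of CCI, 1.75 and 2.31 CPM in Sprr1a- neurons of CCI and 0.470 and 0.458 CPM in Sprr1a- neurons of sham. Ly6e had 36.4 and 33.9, 16.6 and 15.8, and 7.53 and 7.47 CPM in the same order. Both genes therefore stood in 3 separate steps, with the Sprr1a- neurons of CCI between the others. Ly6a had 36.5 and 34.9 CPM in Sprr1a+ neurons of CCI, 8.13 and 10.3 in Sprr1a- neurons of CCI and 3.79 and 2.01 in Sprr1a- neurons of sham. Its level of 66.2 CPM in the 42 Sprr1a+ neurons of Male-Sham rested on 1 neuron with 102 of 167 UMIs and another with 51. Female-Sham had 5.65 CPM, so Sprr1a+ neurons of sham and CCI overlapped for Ly6a.

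Fitted log2 differences of Sprr1a+ from Sprr1a- neurons within CCI were 4.66 (SE 0.18) for Ly6g, 2.85 (SE 0.08) for Ly6c1, 2.13 (SE 0.11) for Ly6a, 1.29 (SE 0.04) for Ly6e and -5.68 (SE 0.23) for Ly6h, where 20.9% of all genes tested were called higher and 24.7% lower. Between Sprr1a- neurons of CCI and of sham, the differences of the 4 other genes were 5.48 (SE 0.93) for Ly6g, 2.11 (SE 0.19) for Ly6c1, 1.66 (SE 0.34) for Ly6a and 1.09 (SE 0.06) for Ly6e, where 3.24% of all genes tested were called higher and 1.24% lower. Sprr1a- neurons lie under a cut-off and are not all free of Sprr1a. Of the 1350 and 1848 Sprr1a- neurons of Male-CCI and Female-CCI, 469 and 725 had no Sprr1a UMI. In Male-Sham and Female-Sham these were 3168 of 3239 and 5042 of 5254. Among neurons with no Sprr1a UMI, Ly6e still had 16.2 and 17.6 CPM in CCI against 7.64 and 7.52 CPM in sham. There Ly6c1 had 1.15 and 2.46 against 0.485 and 0.441 CPM, while Ly6a, with 2.45 and 8.15 against 3.84 and 2.02 CPM, overlapped between the groups.

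The levels came from different numbers of cells. Among Sprr1a+ neurons of Male-CCI and Female-CCI, 52.3% and 45.4% had a Ly6e UMI, 30.4% and 29.4% a Ly6g UMI, 22.6% and 19.6% a Ly6a UMI, 13.3% and 13.4% a Ly6c1 UMI, and 4.43% and 3.80% a Ly6h UMI. Ly6a was as abundant as Ly6e in the sum but sat in fewer neurons. In Male-CCI and Female-CCI the 1% of neurons with the most Ly6a UMIs held 68.7% and 58.5% of them, against 14.2% and 14.7% for Ly6e. When each cell was thinned to 2000 UMIs, the shares in Sprr1a+ neurons were 6.00% and 5.92% for Ly6e, 3.54% and 4.53% for Ly6g, 2.93% and 3.91% for Ly6a, 1.16% and 2.40% for Ly6c1, and 0.273% and 0.447% for Ly6h.

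Satellite glial cells, which wrap the neurons, served as cells that should lack most of these transcripts. Of the 581 SGC-like cells, 23 formed a cluster of immune-like cells of their own at a clustering resolution of 1.2, with 712 CPM of Ly6a, and were left out here after their values had been seen. The other 558, with 0.981 CPM of Ly6a, had a median of 4188 to 5160 UMIs per library. They had no Ly6g and no Ly6c1 UMI in any library, where a count of 0 allows up to 1.61% to 2.75% of cells, and 1 and 2 Ly6a UMIs in Male-CCI and Female-CCI. With the 23 cells kept, Ly6c1 had means of 27.7 CPM in sham and 26.2 CPM in CCI, so its count of 0 rests on leaving them out. Ly6g was at 0 with them as well. Ly6e had 15.8 and 16.2 CPM in SGC-like cells of CCI, against a sham mean of 7.72 CPM (SD 6.81), and the groups did not overlap. With the 23 cells kept, its CCI mean was 113 CPM. In Sprr1a- neurons the Ly6e means were 7.50 CPM in sham and 16.2 CPM in CCI, so similar mean levels were found in these glial cells. Thinned likewise, Ly6g was at 3.54% and 4.53% in Sprr1a+ neurons of CCI and at 0% in SGC-like cells of CCI, with upper 95% limits of 3.08% and 3.33%. Ly6a was at 0% and 0.917% in these SGC-like cells, with upper limits of 3.08% and 5.01%, and Ly6e at 2.54% and 1.83%, with upper limits of 7.25% and 6.47%. The thinned shares of Ly6a, Ly6c1 and Ly6e in neurons lay under these limits, so that at 2000 UMIs per cell and with 118 and 109 glial cells a difference was not detectable.

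Neutrophil markers were near or at 0 in the neurons with the most Ly6g. Neurons strongly positive for Ly6g (a log-normalized value over 1) numbered 39 in Male-CCI and 88 in the other CCI library and held 36.3% and 52.6% of the neuronal Ly6g UMIs there. Their sum over 8 neutrophil markers was 0.940 and 2.11 CPM, with S100a9, Retnlg, Csf3r and Ngp at 0. The 47 and 71 Ly6a+ neurons among the Sprr1a+ neurons had 1.95 and 1.53 CPM, with the same 4 genes at 0. Their sum over 8 endothelial markers was 70.4 and 92.7 CPM against 51.6 and 54.1 CPM in the Ly6a- neurons, all but a small part from Egfl7 and Flt1, and Pecam1, Cldn5, Cdh5 and Tek were at 0. Over all neurons of CCI the endothelial sum was 59.0 and 63.4 CPM, of which Egfl7 alone had 56.1 and 59.7 CPM. The macrophage and other immune markers summed to 4.28 and 3.83 CPM against 8.35 and 11.6 CPM. Fibroblast markers summed to 7.00 and 13 against 8.53 and 8.89 CPM, Schwann cell markers to 16 and 32.2 against 18.6 and 19.3 CPM, and SGC markers to 1122 and 2166 against 886 and 1144 CPM. In the 89 and 121 neurons strongly positive for Ly6e, which held 27.4% and 29.3% of its UMIs, the immune markers summed to 21.0 and 20.5 CPM against 7.67 and 8.45 CPM over all neurons, with 7 of 8 markers found, C1qa at 5.83 and 5.85 CPM and Ptprc at 0. The part of these markers in the Ly6 levels was not tested. Pan-neuronal markers summed to 17686 and 15669 CPM in the Ly6a+ neurons among the Sprr1a+ neurons, against 14130 and 13496 CPM in the Ly6a- neurons. In the neurons strongly positive for Ly6e they summed to 14299 and 13461 CPM.

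By class of neuron, the rising genes were concentrated in a small number of classes, which were rebuilt here by clustering and named by markers (the suffix -like marks this). Classes of peptidergic (PEP), nonpeptidergic (NP) and neurofilament-rich (NF) neurons, of C-fibre low-threshold mechanoreceptors (cLTMR) and of neurons seen mainly after injury (CCI-ind) were told apart. The neurons in clusters 19 and 23 stayed without a name. Cluster 19 was led by Ly6a, Ly6g and Cyp26a1, so the levels of the members in it are a description of how it was formed. It held 4 and 2 neurons of the sham libraries and 135 and 244 of the CCI libraries, and 4 of the 6 CCI-ind markers met the naming rule. Of the 55 pairs of a member and a named class, both CCI libraries were above both sham libraries in 33 and below them in 8. The members were chosen by this contrast and no such share over all genes is given, so nothing is read from these counts.

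**Figure D2:**
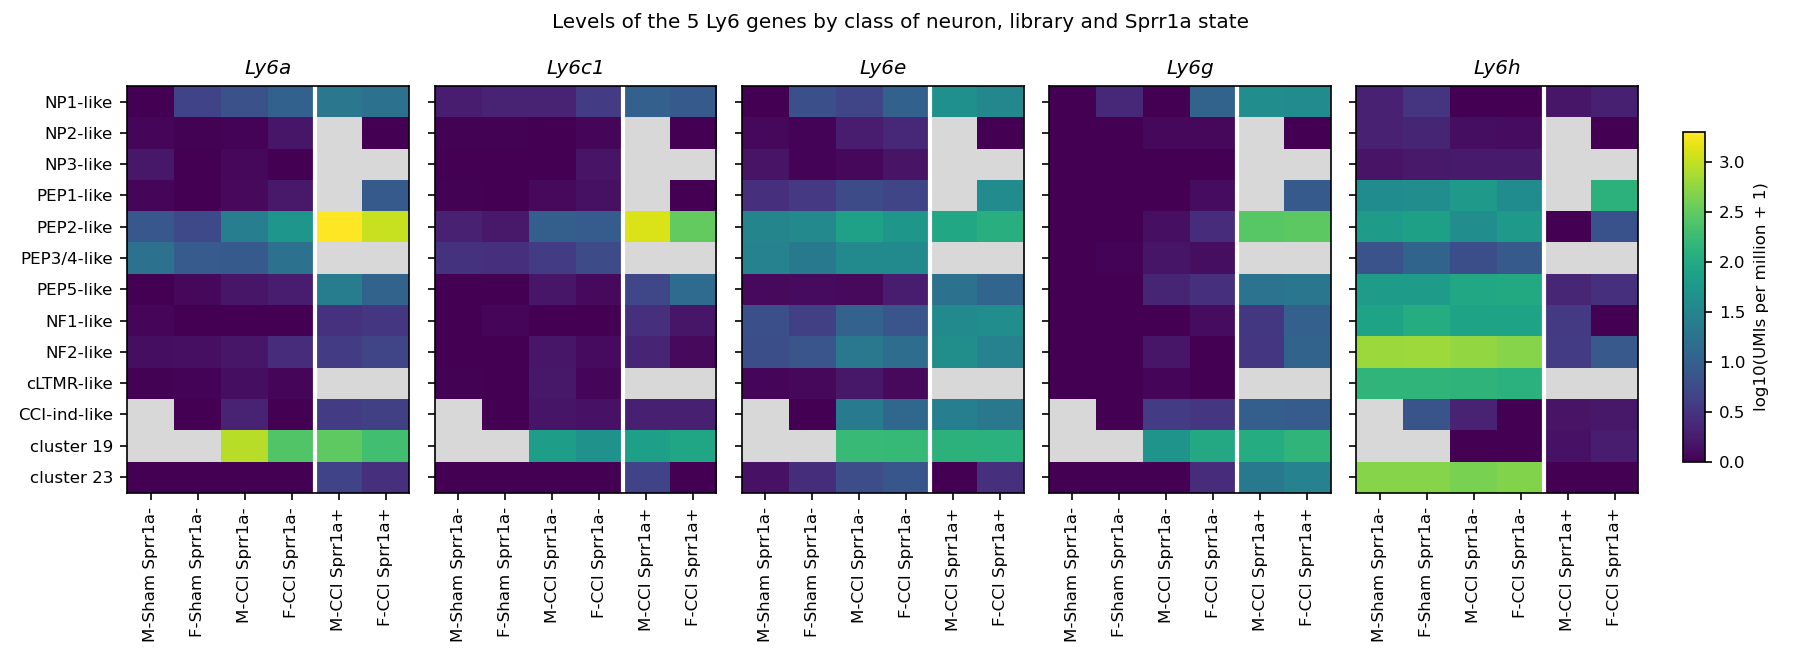
Level of each Ly6 gene (CPM, colour on a log scale) by class of neuron and library. Columns are Sprr1a- neurons of the 4 libraries and Sprr1a+ neurons of the CCI libraries, with grey for fewer than 5 cells. Among Sprr1a+ neurons of CCI, Ly6a and Ly6c1 were highest in PEP2-like neurons and cluster 19. Among Sprr1a- neurons, Ly6h was highest in NF2-like neurons and cluster 23.

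In sham, CCI-ind-like neurons, 40 and 132 cells, had 22.4 and 0.906 CPM of Ly6a. The Male-Sham value rested on 1 neuron of cluster 11, which held 51 UMIs. Among the other named classes Ly6a was highest in PEP3/4-like neurons, with 16.2 and 7.92 CPM, PEP2-like neurons, with 6.87 and 4.39 CPM, and NP1-like neurons, with 2.84 and 10.9 CPM. In Male-Sham the 4 neurons of cluster 19 held 23.8% of the 772 Ly6a UMIs and cluster 11, a CCI-ind-like cluster, held 6.61%, against 2.24% and 0.995% of the 402 UMIs in Female-Sham. In CCI, PEP2-like neurons had 140 and 154 CPM, while PEP3/4-like neurons had 7.71 and 16.4 CPM and overlapped with sham. Within the PEP2-like class, cluster 12 (led by Tmc3, Dcn and Mymk) went from 8.68 and 8.35 CPM to 280 and 330 CPM. Of all Ly6a UMIs in neurons of Male-CCI and Female-CCI, cluster 19 held 62.1% and 52.9% and cluster 12 held 19.5% and 27.5%, with 4.79% and 6.71% and 2.70% and 2.72% of the neurons. Cluster 19 had 332 and 202 CPM in CCI.

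The Sprr1a+ neurons in the PEP2-like class were few, 5 in Male-CCI and 17 in Female-CCI, and all of them had a Ly6a UMI, up to 350 in a single neuron of Male-CCI. Their levels were 2563 and 1048 CPM of Ly6a, 1307 and 322 CPM of Ly6c1, and 273 and 295 CPM of Ly6g, against 25.1 and 53.6 CPM of Ly6a, 9.0 and 8.22 CPM of Ly6c1, and 0.346 and 1.64 CPM of Ly6g in the Sprr1a- PEP2-like neurons of the same libraries. These are the highest levels of Ly6a, Ly6c1 and Ly6g in any class with at least 5 Sprr1a+ neurons in both CCI libraries. By contrast, CCI-ind-like neurons, which made up most of the Sprr1a+ neurons, had 2.65 and 3.05 CPM of Ly6a.

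Ly6c1 followed Ly6a. PEP2-like neurons had 1.02 and 0.706 CPM in sham and 67.9 and 39.9 CPM in CCI, and cluster 19 had 71.6 and 84.6 CPM in CCI. In every other named class the level in CCI was at most 7.66 CPM.

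Ly6g had a wider range. It was at 0 in both sham libraries in PEP2-like, PEP5-like, NF1-like and NF2-like neurons and in cluster 23, and in CCI it had 12.7 and 31.3, 10.3 and 10.8, 1.11 and 3.41, 1.75 and 5.36, and 8.47 and 14.5 CPM there. NP1-like neurons, the class that itch-related genes such as Nppb and Sst mark, went from 0.711 and 4.18 CPM to 32.1 and 32.2 CPM, and 76.5% and 61.4% of their Sprr1a+ neurons in CCI had a Ly6g UMI. CCI-ind-like neurons had 8.66 and 7.90 CPM in CCI and cluster 19 had 105 and 141 CPM. In NP2-like, NP3-like, PEP1-like, PEP3/4-like and cLTMR-like neurons Ly6g stayed at or under 0.534 CPM in each library. Sprr1a+ neurons were rare in these classes.

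Ly6e was the most widespread of the rising genes. It was highest in sham in PEP2-like neurons, with 30.8 and 34.9 CPM, and in PEP3/4-like neurons, with 28.3 and 20.4 CPM, and in CCI these had 76.3 and 60.8, and 37.4 and 36.9 CPM. The large-fibre classes started lower, with 5.30 and 6.34 CPM in NF2-like and 5.33 and 3.2 CPM in NF1-like neurons, and reached 34.6 and 21.6, and 22.1 and 17.8 CPM. NP1-like neurons went from 2.37 and 9.48 to 35.9 and 27.8 CPM. Ly6e was also higher in CCI among the Sprr1a- neurons of the PEP3/4-like and PEP2-like classes. In Sprr1a- PEP3/4-like neurons it had 37.5 and 36.7 CPM in CCI against 28.3 and 20.4 CPM in sham, and in Sprr1a- PEP2-like neurons 75.5 and 54.6 against 30.8 and 34.9 CPM.

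Ly6h was highest in other classes than the rising genes were, although PEP2-like neurons, high in Ly6a, Ly6c1 and Ly6e, also had it. In sham it was highest in NF2-like neurons, with 636 and 648 CPM, followed by cluster 23 (301 neurons, led by Rxfp1, Calb1 and Fcer1g) with 497 and 500, cLTMR-like neurons with 144 and 144, NF1-like neurons with 80.3 and 108, PEP2-like neurons with 65.4 and 73.5, PEP5-like neurons with 65.3 and 64.4, and PEP1-like neurons with 39.2 and 41.0 CPM. PEP2-like and PEP5-like neurons differed by less than the sham libraries of the PEP2-like class did. NP1-like, NP2-like, NP3-like and CCI-ind-like neurons had at most 1.81 CPM in any library.

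In most classes that make Ly6h, Sprr1a+ neurons were nearly without it. NF2-like neurons of Male-CCI and Female-CCI had 2.83 and 7.26 CPM in 80 and 78 Sprr1a+ cells and 578 and 500 CPM in 43 and 65 Sprr1a- cells. Cluster 23 had no Ly6h UMI in its 21 and 16 Sprr1a+ neurons, where 3 UMIs would be 3.65 and 5.30 CPM, and 436 and 466 CPM in its Sprr1a- neurons. PEP5-like neurons had 1.25 and 1.78 CPM in 130 and 146 Sprr1a+ cells and 94.6 and 98.8 CPM in Sprr1a- cells. In NF1-like neurons, 55 Sprr1a+ cells of Male-CCI had 2.66 CPM and 33 of Female-CCI had none, against 80.7 and 80.4 CPM in Sprr1a- cells. PEP1-like neurons went the other way in Female-CCI, but in few and shallow cells. Their 10 Sprr1a+ cells in Female-CCI, with a median of 5120 UMIs, had 34 Ly6h UMIs in 30% of the cells, or 130.3 CPM, against 38.9 CPM in the Sprr1a- cells. At 5120 UMIs a single Sprr1a UMI passes the cut-off, so the injury state of these cells is uncertain. The cLTMR-like class, with 1 Sprr1a+ neuron in CCI, kept 138 and 128 CPM.

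**Figure D3:**
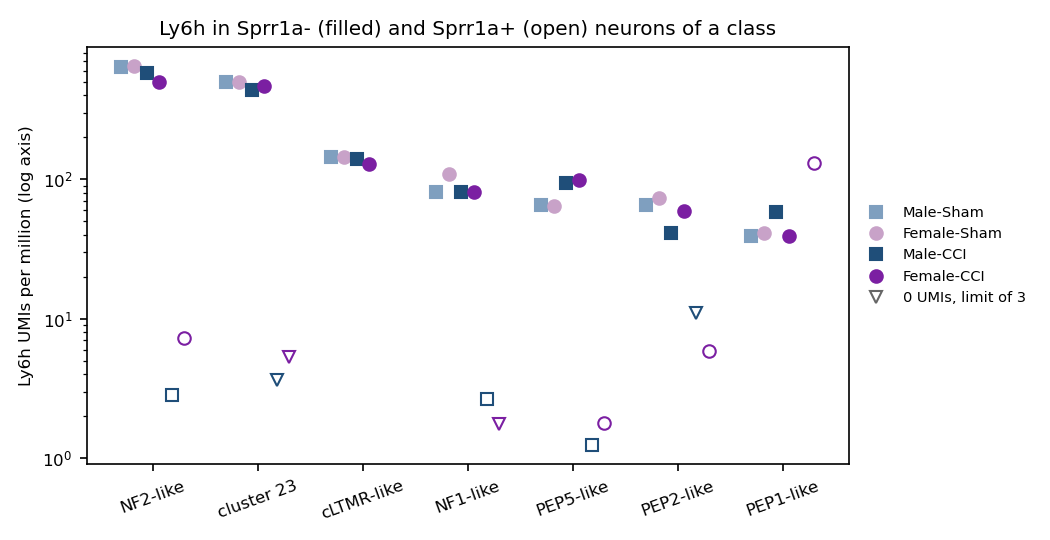
Ly6h level (CPM, log axis) in classes where it was high, in Sprr1a- neurons of sham, Sprr1a- neurons of CCI and Sprr1a+ neurons of CCI, with a point per library. NF2-like neurons had 636 and 648 CPM in sham, 578 and 500 CPM in Sprr1a- neurons of CCI, and 2.83 and 7.26 CPM in Sprr1a+ neurons. The PEP1-like point for Sprr1a+ neurons, at 130.3 CPM, rests on 10 shallow cells of Female-CCI.

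Sprr1a- neurons did not all keep the Ly6h level of sham. In PEP5-like neurons it was higher in CCI, with 94.6 and 98.8 against 65.3 and 63.9 CPM, and this held in each cluster of the class. Cluster 8 had 27.4 and 32.6 against 15.5 and 18.8 CPM, cluster 15 had 258 and 243 against 236 and 217 CPM, and cluster 21 had 190 and 156 against 137 and 111 CPM. In Sprr1a- NF2-like neurons it was lower, with 578 and 500 against 636 and 648 CPM, and in PEP2-like neurons 40.8 and 59.2 against 65.4 and 73.5 CPM. None of these class differences was tested.

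The rising genes were found together in single neurons. Sprr1a+ neurons of CCI with at least 10000 UMIs, 1403 in Male-CCI and 1680 in Female-CCI, were thinned to 10000 UMIs, so that depth was the same in each. Ly6a and Ly6c1 were both found in 39 and 66 neurons, where the product of their shares gives 5.40 and 11.3. Ly6a and Ly6g were both found in 59 and 84, where the product gives 13.5 and 24.2. For Ly6c1 and Ly6g the counts were 35 and 66 beside products of 8.02 and 18.7, for Ly6a and Ly6e 52 and 82 beside 25.1 and 35.4, for Ly6c1 and Ly6e 33 and 66 beside 14.9 and 27.3, and for Ly6e and Ly6g 71 and 105 beside 37.4 and 58.4. All 6 pairs were at least 1.5 times the product in both libraries at this depth, and 5 of the 6 were at 5000 UMIs, in the unthinned counts, and without the shared barcodes. Of the neurons with a Ly6a UMI, 34.5% and 42% also had Ly6c1, against 2.17% and 3.61% of those without. Ly6a and Ly6c1 also share part of their 3′ sequence, as given above, and the part of this in the pair was not tested.

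**Figure D4:**
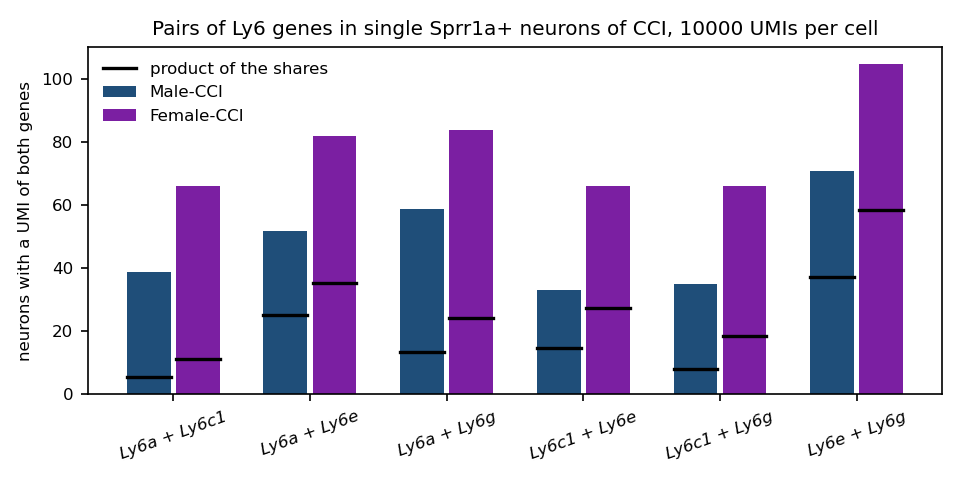
Sprr1a+ neurons of Male-CCI and Female-CCI, each thinned to 10000 UMIs, in which UMIs of both genes of a pair were found (bars, number of neurons). The black lines mark the product of the shares of the genes, and every bar was above its line, from 39 against 5.40 for Ly6a and Ly6c1 to 71 against 37.4 for Ly6e and Ly6g in Male-CCI.

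Outside cluster 19, which these genes had led, the pairs were found in fewer neurons. Among the 1279 and 1458 Sprr1a+ neurons there, Ly6a and Ly6c1 were both found in 13 and 17, where the product gives 1.11 and 1.49, and Ly6a and Ly6g in 12 and 22, where it gives 3.56 and 5.43. They include the 5 and 17 Sprr1a+ neurons of cluster 12. In unthinned counts all of these had a Ly6a UMI, and 100% and 94.1% a Ly6c1 UMI. The part of the pairs that lay in cluster 12 was not counted. The lowest of the 6 pairs was Ly6e with Ly6g in Female-CCI, with 32 beside 23.2. Inside the cluster, which was formed by these genes, the ratios were 0.929 to 1.34 in 132 and 242 neurons. Counting the 4 rising genes at 10000 UMIs, 9.84% and 12.3% of Sprr1a+ neurons of CCI had at least 2 of them and 3.99% and 5.48% at least 3, against 2.00% and 3.70%, and 0.308% and 0.925%, of Sprr1a- neurons of CCI. In Sprr1a- neurons of sham 1.35% and 1.11% had at least 2. Over all neurons of CCI, rather than Sprr1a+ neurons alone, 2 and 2 cells had both Ly6g and Ly6h beside products of 21.3 and 36.5. The members were chosen by Sprr1a state, and Ly6g and Ly6h lie mostly in opposite states, so nothing is read from this low count.

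Over 50 sums, by class and library, the log levels of Ly6a and Ly6c1 had a Pearson correlation of 0.933, Ly6a and Ly6e of 0.819, and Ly6a and Ly6g of 0.764, while Ly6h was between -0.134 and -0.311 with the others. The sums share libraries and classes, so these values describe the pattern only. Among 10116 genes other than the members, the pattern most like that of Ly6a was that of Sectm1b (0.865), followed by Btg1, Exoc6b, Smarcc1 and Rbpj. Sectm1b (0.819) also came first for Ly6c1, before Clcn5, Exoc6b, Smarcc1 and Dicer1. Ly6e was most like Rgs20 (0.916), Rbpj, Ets2, Tgfb1 and Smim3, and Ly6g most like Rnf19b (0.894), Inhbb, Mmp16, Bach1 and Ifi202b. For Ly6h these were Cntnap1 (0.890), Kank4, Sh3gl2, Shank1 and Tppp, among them genes of the axon and the synapse.

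Ly6a+ neurons differed from other Sprr1a+ neurons in many genes. They were compared with Ly6a- neurons among Sprr1a+ neurons of the CCI libraries, as sums of 47 and 71 against 1420 and 1719 cells with the library as a term of the model. Of 14726 genes tested beside Ly6a itself, 1211 (8.22%) were called higher and 1253 (8.51%) lower by edgeR's quasi-likelihood test. Cyp26a1, a retinoic acid hydroxylase, had 65.0 and 60.5 CPM in Ly6a+ neurons of Male-CCI and Female-CCI against 5.18 and 5.25 CPM in Ly6a- neurons. Kcnk3, a background potassium channel (TASK-1), had 116 and 129 against 10.5 and 12.5 CPM, and Npy1r, a receptor of neuropeptide Y, 220 and 257 against 31.1 and 32.8 CPM. The other genes named by rule were Sectm1b, with a log2 difference of 3.38 (SE 0.11), the proteoglycan gene Dcn (2.97, SE 0.10), the transcription factor gene Bcl11a (2.69, SE 0.21), the VEGF receptor gene Flt1 (2.68, SE 0.22) and the prostaglandin E2 receptor gene Ptger4 (2.63, SE 0.16). Dcn and Npy1r are also markers that named the PEP2-like and PEP3/4-like classes.

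The 5 genes lowest in Ly6a+ neurons were Ctla2a, with 0.389 and 0.383 against 33.9 and 14.7 CPM, Ccdc172, with 0.389 and 0.383 against 22.8 and 19.3 CPM, both from 1 UMI in each Ly6a+ sum, Npy (neuropeptide Y, -5.14, SE 0.15), Fam19a4 (-5.04, SE 0.31) and Tmem45b (-4.89, SE 0.19). Npy had 4.28 and 9.57 against 295 and 185 CPM. Among these genes the largest adjusted p was 4.5e-30, for Flt1. The other members are given as a description, and Ly6c1 had 212 and 186 against 5.42 and 8.73 CPM, Ly6g 131 and 198 against 16.3 and 23.3 CPM, and Ly6e 115 and 103 against 34.1 and 31.6 CPM. Ly6h was near 0 in both states, with 0.778 and 3.83 against 0.866 and 1.52 CPM. Most Ly6a+ neurons lay in cluster 19, 37 of 47 and 56 of 71, so that class and Ly6a cannot be told apart in this contrast.

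Of 38 other genes of the Ly6/uPAR superfamily listed, 32 were in the tables and 15 passed the filter over all neurons. Of these 15, 6 were called higher in CCI (15.2% of all genes were) and 2 lower (12.7%), with a median log2 fold change of 0.45 against -0.01 over all genes. Plaur, the urokinase receptor, had 7.12 and 9.93 CPM in sham and 50.7 and 47.9 CPM in CCI, a log2 fold change of 2.58 (SE 0.17, adjusted p = 0.000408 in edgeR). Cd59a, an inhibitor of the complement membrane attack complex, had 116 and 124 against 220 and 208 CPM (0.89, SE 0.06). Gml, Gml2, Slurp1 and Ly6k rose from at most 0.211 CPM in sham to 2.75 and 2.79, 0.861 and 1.26, 1.27 and 1.17, and 0.209 and 0.256 CPM in CCI. Gml and Gml2 lie next to each other on chromosome 15, as do Slurp2 and Lynx1. Lypd6b (-0.51, SE 0.08) and Slurp2 (-1.06, SE 0.30) were called lower, and Slurp2 had a log2 fold change of 0.03 without the shared barcodes. Neither was called without Male-Sham (-0.50 and -0.68) or without Male-CCI (-0.49 and -1.23), and Slurp2 was not called without Female-CCI (-0.92). Lynx1, which like Ly6h acts on nicotinic receptors, had 105 and 94.9 against 142 and 121 CPM and was under the fold threshold (0.45, SE 0.09), but it was called without the shared barcodes, with at most 5% mitochondrial UMIs, without Male-Sham and without Female-CCI.

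**Figure D5:**
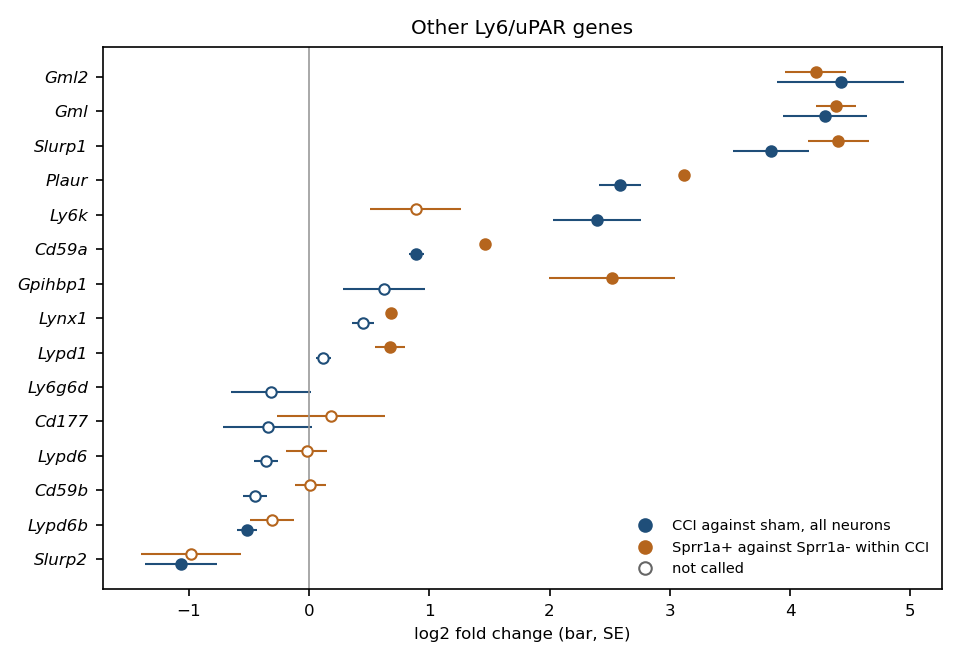
Log2 fold changes (points, with SE as bars) of the other Ly6/uPAR genes that were tested, for CCI against sham over all neurons and for Sprr1a+ against Sprr1a- neurons within CCI, with filled points for called genes and open points for the rest. Plaur was called higher in both, at 2.58 in CCI against sham and at 3.12 in Sprr1a+ against Sprr1a- neurons.

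Within CCI, 8 of 14 of these genes tested were higher in Sprr1a+ neurons (20.9% of all genes were) and none lower (24.7%; 1 was lower at an unadjusted p under 0.05 and none by DESeq2). Plaur had 84.5 and 84.0 against 10.8 and 11.1 CPM (log2 difference 3.12, SE 0.04, adjusted p = 6.88e-12), Cd59a 305 and 291 against 120 and 124 CPM (1.47, SE 0.04), Lynx1 164 and 142 against 115 and 101 CPM (0.68, SE 0.03) and Lypd1 22.7 and 20.8 against 13.8 and 17.0 CPM (0.67, SE 0.12). The others were Gml, Gml2, Slurp1 and Gpihbp1, with log2 differences of 2.52 to 4.4. Lypd1 was no longer called without the shared barcodes (0.79, SE 0.22, adjusted p = 0.0635 in edgeR). Between Sprr1a- neurons of CCI and sham, 4 of 14 were called higher (3.24% of all genes were) and none lower (1.24%; 3 were lower at an unadjusted p under 0.05 and none by DESeq2). They were Plaur, with 10.8 and 11.1 against 4.27 and 4.60 CPM (1.28, SE 0.07, adjusted p = 0.00114), and Gml, Gml2 and Slurp1, each with at most 0.290 CPM. In neurons with no Sprr1a UMI none of the 4 was called. Plaur alone was called without Male-CCI, Plaur and Gml without either of the sham libraries, and Plaur and, as lower, Lypd6b without Female-CCI. In Ly6a+ against Ly6a- neurons, Lynx1 was higher (0.93, SE 0.06) and Lypd1, Lypd6b, Cd59a, Plaur and Gml lower. Plaur had 49.0 and 29.9 against 85.5 and 85.9 CPM.

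Of the nicotinic receptor subunits, on which Ly6h and Lynx1 act, 4 of 11 tested over all neurons were lower in CCI (12.7% of all genes were) and 2, Chrna5 and Chrnb1, higher (15.2%). Chrna6 had 26.7 and 21.1 CPM in sham and 9.64 and 8.24 CPM in CCI (-1.36, SE 0.13), Chrnb3 10.4 and 11.3 against 4.59 and 5.15 CPM (-1.10, SE 0.08), and Chrna4 (-0.64, SE 0.16) and Chrnb4 (-0.77, SE 0.19) were lower too. Within CCI, Chrna6 had 0.148 and 0.36 CPM in Sprr1a+ against 20.8 and 16.3 CPM in Sprr1a- neurons, and 5 of 10 subunits were lower there (24.7% of all genes) and 3 higher (20.9%). Chrnb2, with 20.6 and 18.5 against 17.9 and 16 CPM, was not among them. Between Sprr1a- neurons of CCI and sham none of 10 was called by edgeR or by DESeq2, 3 had an unadjusted p under 0.05 in edgeR, and the smallest adjusted p was 0.0801. In Ly6a+ neurons 1 of 5 was called lower by edgeR and none by DESeq2, namely Chrna3, with no UMI in either Ly6a+ sum against 1.87 and 1.5 CPM.

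Of 24 interferon-stimulated genes tested, the set in which Ly6e is often placed, 11 were called higher over all neurons (15.2% of all genes were), 13 were not called and none was lower, with a median log2 fold change of 0.38, and none was lower by DESeq2 or at an unadjusted p under 0.05 in edgeR. Ifit1 had 26.7 and 40.1 CPM in sham and 96.7 and 152 CPM in CCI (1.95, SE 0.38), and Isg15 5.23 and 7.07 against 13 and 17.5 CPM (1.36, SE 0.21). Between Sprr1a- neurons of CCI and sham 9 of 24 were higher (3.24% of all genes) and none lower by either tool or at an unadjusted p under 0.05, with Rsad2 at 14.3 and 12 against 2.37 and 3.44 CPM. Within CCI the list did not follow the Sprr1a+ state, as 3 were higher (Gbp2, Igtp and Xaf1; 20.9% of all genes) and 5 lower (24.7%), among them Psmb8 with 8.95 and 17.2 against 40.2 and 60.3 CPM. In Ly6a+ against Ly6a- neurons 9 were higher (8.22% of all genes) and 1 lower (8.51%), with Oasl2 at 79.8 and 101 against 40.2 and 48.5 CPM.

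Of 21 injury genes, a list that the study's own analysis of these libraries had informed and that is no independent evidence of direction, 20 were higher in CCI over all neurons (15.2% of all genes), 20 in Sprr1a+ neurons within CCI (20.9%) and 17 in Sprr1a- neurons of CCI against sham (3.24%). None was lower in these 3 contrasts by edgeR, also at an unadjusted p under 0.05, or by DESeq2. In Ly6a+ against Ly6a- neurons only Gal (15256 and 16065 against 5839 and 6263 CPM) and Gap43 were called higher, and 6 were lower, among them Nts (143 and 148 against 1941 and 2122 CPM) and Npy.

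The sexes were compared with surgery as a term of the model. None of the 5 members was called by edgeR or DESeq2, where edgeR called 0.209% of all genes tested in either direction. Ly6g had the largest difference, with 15.4 CPM in Female-CCI and 10.9 CPM in Male-CCI and with 0.137 and 0.0555 CPM in the sham libraries. Its log2 difference of female from male was 0.53 (SE 0.10), with an unadjusted p = 0.00165 and an adjusted p = 0.152 in edgeR, and it was the only member with an unadjusted p under 0.05. Ly6a (-0.46, SE 0.38), Ly6c1 (0.19, SE 0.10), Ly6e (-0.07, SE 0.06) and Ly6h (0.02, SE 0.04) had adjusted p-values of 0.565 to 0.892. None of the 15 other Ly6/uPAR genes, the 11 nicotinic subunits or the 21 injury genes was called by edgeR or DESeq2, and 3, 5 and 1 of them had an unadjusted p under 0.05 in edgeR. Of the 24 interferon-stimulated genes 18 were higher in females at an unadjusted p under 0.05 and none lower, 3 were called higher by DESeq2, and edgeR called Ifit1 (0.63, SE 0.04) and Usp18 (0.75, SE 0.08) higher. With 1 library of each sex and surgery, whether a change after CCI differed between the sexes was not tested.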

How the data were processed

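Cells from 4 libraries were captured with 10x 3′ v3 chemistry. The authors deposited UMI counts per gene and barcode for each library, made with Cell Ranger against mm10. The submitters' processing notes name version 2.1.1, and the study's methods and the file headers name others. The members and all gene lists were chosen with earlier results of these data known.

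Cells with at least 1500 genes and at most 10% mitochondrial UMIs were kept, after the cells with the highest Scrublet scores (scanpy 1.11.5) had been taken out as doublets, as many per library as the study removed. Libraries were integrated by canonical correlation in Seurat 5.3.0 (3000 genes, 20 components, resolution 0.8). A cluster was named by a class of which 3 or more markers each reached 10% of its cells and 2 times the level in the other cells, and it stayed unnamed where under 75% of the class's markers did so and none was among its 10 leading genes. Cells with a normalized UMI value over 1 (natural log, scale 10000) were called Sprr1a+ or Ly6a+.

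Counts were summed per library and tested with edgeR 4.0.16 (robust quasi-likelihood, filterByExpr, TMM, Benjamini-Hochberg over all genes tested, R 4.3.3). The test was checked on simulated counts. Named genes were the 5 members, the called and up to 5 other Ly6/uPAR genes by level, for each member the 5 genes of most similar pattern (mean of at least 5 CPM), and for Ly6a+ neurons the 10 highest and 5 lowest called genes (mean of at least 10 CPM). Genes of the other lists were picked as examples after their values were seen. DESeq2 1.42.0, other thresholds, sex as a block, other resolutions, kept doublets and leaving out each library were the alternatives, and leaving out shared barcodes was added after the data were seen, as were the removal of immune-like cells from the SGC-like cells and the pairs outside cluster 19. Intervals are exact binomial (Clopper-Pearson, 95%) and, like the limits of 3 counts, cover counting error only.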

Additional observations from a re-analysis of the deposited data

Results flagged for a closer look

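Ly6h in Sprr1a- neurons went in opposite directions in different classes of neuron. In the 5 classes given here, both CCI libraries were on the same side of both sham libraries. In PEP5-like neurons the CCI mean was 1.496 times the sham mean, with 65.3 and 63.9 CPM in sham and 94.6 and 98.8 CPM in CCI. In PEP2-like neurons it was 0.721 times the sham mean, with 65.4 and 73.5 against 40.8 and 59.2 CPM. In NF2-like neurons the ratio was 0.839, in cluster 23 it was 0.904 and in cLTMR-like neurons 0.925. In NF1-like neurons, with 80.7 and 80.4 CPM in CCI and 80.3 and 108 CPM in sham, the libraries overlapped. With 2 libraries per surgery the difference between the classes was not tested.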

How the results depend on the processing

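Of 393 fold changes of single genes under the alternatives, 354 kept their direction and their side of the threshold, 33 no longer passed it, 2 newly passed it, 2 moved by more than the spread and 2 reversed. The reversals were Slurp2 in CCI against sham without the shared barcodes (log2 fold change 0.0282) and Ly6h in Ly6a+ against Ly6a- neurons with any Sprr1a UMI as the definition of Sprr1a+ (-2.47). Of the other Ly6/uPAR genes, 4 were called between Sprr1a- neurons of CCI and sham, against 1 by DESeq2 (Plaur), 2 others (Cd59b and Lypd6b) with any Sprr1a UMI as the definition, and 1 to 2 when 1 library was left out. In Ly6a+ against Ly6a- neurons, 2464 genes were called by edgeR and 1404 by DESeq2. By sex, 1 member, Ly6g, was called without the filter on low counts (log2 difference 0.52, adjusted p = 0.00301 in edgeR) and none with it. The causes of these changes were not tested. The labels carry no replicate numbers. With sex as a replicate block, 8 of the other Ly6/uPAR genes were called in CCI against sham, as without it, and 5 between Sprr1a- neurons. Leaving out a CCI library gave fold changes but no test within CCI. At 2000 UMIs per cell the mean share of Sprr1a+ neurons of CCI with a UMI was between 0.36% (Ly6h) and 5.96% (Ly6e), so that depth limits the shares of cells. With 2 pooled libraries per surgery, the spread between mice was not measured.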
